A study of Drosophila melanogaster with 12 samples.

Results

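Adult male fruit flies (Drosophila melanogaster) that had been fed methylphenidate for 24 hours were compared with males fed sucrose for 24 hours. Methylphenidate is a psychostimulant that blocks the dopamine transporter. Of the 12 arrays of the series, 6 belong to this comparison: 3 of methylphenidate-fed males and 3 of sucrose-fed males, chosen by their titles. The remaining 6 arrays are of F1 males, 3 from a methylphenidate-exposed mother and a sucrose-exposed father and 3 from sucrose-exposed parents, and they enter the shared estimate of the spread. Every array held RNA of 8 whole flies, all titled wild type, with no strain named. Nothing in the labels states that replicates are separate cultures; p-values here measure only how far these samples spread, which may be technical.

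Ingested compounds that a fly cannot use are cleared in steps, mainly in the gut, the Malpighian tubules and the fat body. Enzymes first oxidise or hydrolyse the compound, transferases then join it to glutathione, a sugar or a phosphate, and transporters move the product out of the cell. Each step draws on general metabolism: NADPH and heme for cytochrome P450 enzymes, and cysteine, made from methionine, for glutathione. The account below covers these supplying pathways, digestion, fat, nutrient signals, the translation machinery and the nervous and reproductive tissues.

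All values are log2 signals of probe sets on the Affymetrix Drosophila Genome 2.0 array, and a difference of 1 is a doubling. A probe set was called where limma's Benjamini-Hochberg adjusted p over 18769 probe sets was under 0.05, and errors of changes are standard errors (SE) of that fit. In methylphenidate-fed males 447 probe sets were higher and 182 lower, together 3.35% of those tested, and 2872 had an unadjusted p under 0.05. The higher ones made up 71.1% of the 629 calls, and 58.0% of 826 calls (479 higher, 347 lower) after quantile normalization of the deposited values. Counted per gene, with the brightest probe set standing for each of 11982 genes, 388 genes were higher (3.24%) and 161 lower (1.34%), and the median log2 change of all genes was -0.02. Most changes were small: 212 of the higher and 122 of the lower probe sets differed by less than 1.5-fold, and 29 and 5 by more than 4-fold. Values of the 3 and 3 arrays did not overlap for 25.5% of genes, so a lack of overlap alone is common on these arrays.

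The median signal was 1.52 to 1.57 on the methylphenidate-fed arrays and 1.51 to 1.56 on the sucrose-fed arrays (exact permutation p = 0.5). The difference between the 3′ and 5′ control probe sets of GAPDH, a measure of RNA integrity, was 1.5 to 1.51 with methylphenidate and 1.53 to 1.70 with sucrose, with no overlap (exact permutation p = 0.1, the smallest that 3 against 3 arrays allow). With this difference as a covariate 203 probe sets were called, 197 of them among the 629 of the fit without it, and no call changed sign. Because the measure follows the feeding groups, drug and RNA integrity cannot be fully told apart for the other calls, and what the covariate left is given beside the lists with calls. In RNA of whole flies, fewer cells of a type and less RNA per cell cannot be told apart either. Of the yolk protein genes, which mark female tissue, Yp1 was near the floor (-0.02 to 0.08 with methylphenidate and 0.01 to 0.03 with sucrose). Values of Yp2 and Yp3 are not given here, and Yp1 alone does not show that female tissue was absent.

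Outside the cytochrome P450, glutathione S-transferase, UDP-glycosyltransferase and ecdysteroid kinase-like families, 311 genes were higher and 157 lower. The 4 families themselves held 77 higher and 4 lower genes. With the GAPDH covariate 18 of 26 higher P450 genes, 10 of 17 transferase genes, 11 of 11 UDP-glycosyltransferase genes and 15 of 23 kinase-like genes were called. The exceptions that fell, picked out after their values were seen, were the P450 genes Cyp310a1 and Cyp313a1, by 0.43 and 0.56 on the log2 scale, and the kinase-like genes CG10514 and CG11892, by 0.89 and 1.04 (limma adjusted p = 0.041, 0.0076, 0.00019 and 9.4e-05); the kinase-like pair kept the call with the covariate and the P450 pair did not. The 55 lists plotted cover 1665 genes and hold 226 of the 549 called genes, so many called genes are in none of them. Among these lists, chosen with earlier results of these data known, calls were uneven, and several large lists held none.

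**Figure D1:**
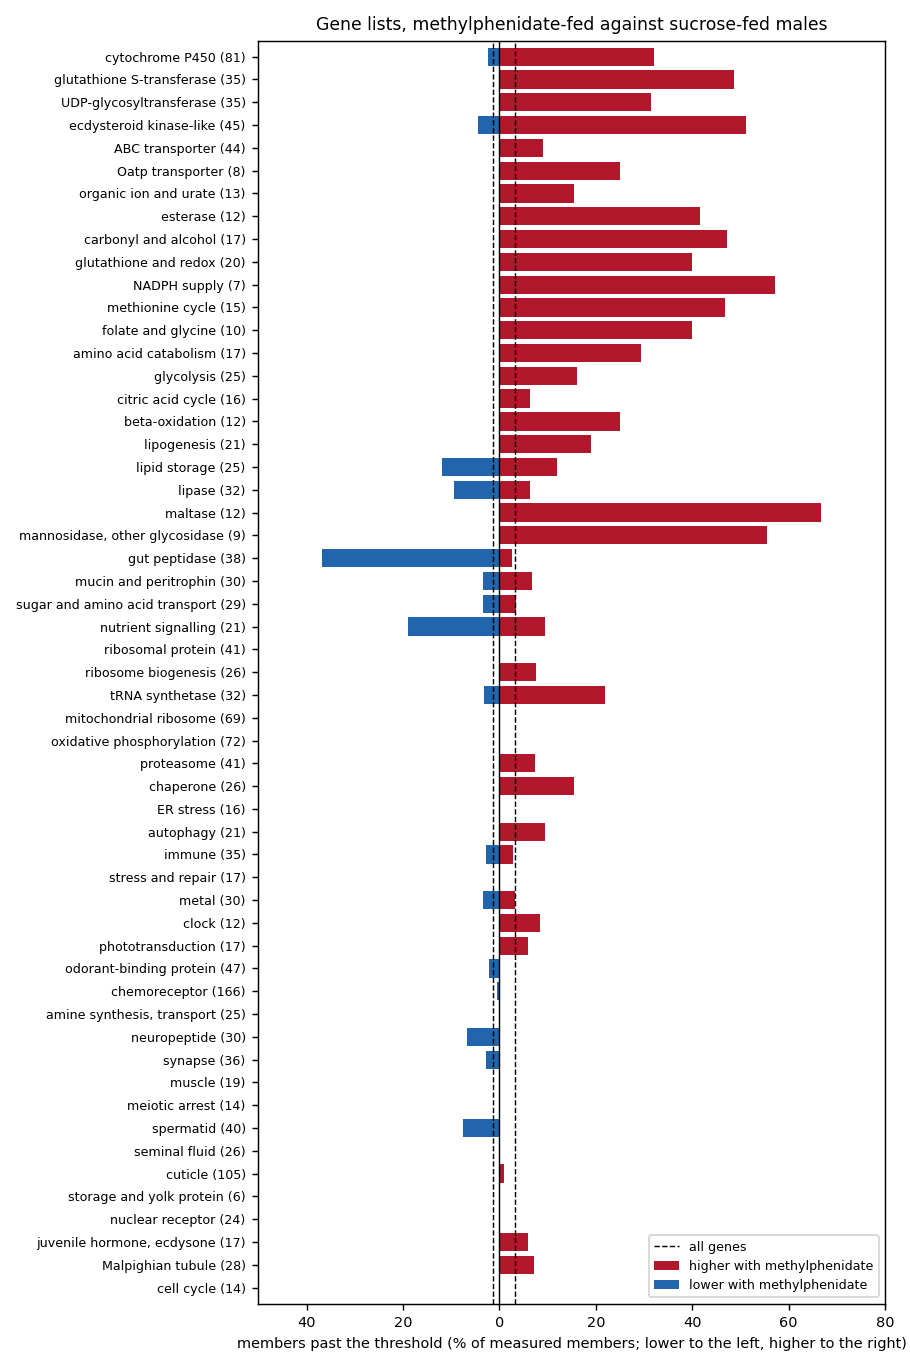
Share of the measured members of each of 55 gene lists, without the 4 lists drawn up after values were seen, past the threshold, in percent, with members higher in methylphenidate-fed males as red bars to the right and members lower as blue bars to the left of 0; list sizes are in brackets and dashed lines mark the shares over all genes (3.24% higher, 1.34% lower). Among these 55, maltases (66.7%) and the list labelled NADPH supply (57.1%), pentose phosphate and NADP-dependent enzymes, had the largest shares of higher members. Among the same 55, gut peptidases (36.8%) had the largest share of lower members. Ribosomal, oxidative phosphorylation, amine and muscle lists had no bar.

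Transporters that export drugs rose in a small, defined subset. Mdr50, a P-glycoprotein of the ABC family, had log2 signals of 5.28, 5.98 and 5.94 in methylphenidate-fed males and 3.44, 3.49 and 3.18 in sucrose-fed males. All 3 treated arrays lay far above the controls, by 5.14-fold on average (log2 2.36 ± 0.16 SE, limma adjusted p = 5.8e-07). MRP, the multidrug resistance protein that exports conjugates, measured 7.01, 7.57 and 7.57 with methylphenidate and 6.25, 6.34 and 6.26 with sucrose (2.14-fold, limma adjusted p = 0.00011). Mdr49, a close relative of Mdr50, was 1.71-fold higher (limma adjusted p = 0.00028). The fourth ABC gene called, CG31689, was 1.21-fold higher, a call that held under 6 of 17 alternative settings. Mdr65, the P-glycoprotein of the blood-brain barrier in flies, measured 3.09, 2.74 and 3.01 with methylphenidate and 2.56, 3.11 and 2.82 with sucrose, and was not called (log2 0.11 ± 0.15 SE). In all, 4 of 44 ABC genes were higher (9.09%, against 3.24% of all genes) and none lower. Of the 4, 3 were also called with the GAPDH covariate. The list's median log2 change was -0.02, that of all genes.

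Among 8 organic anion transporting polypeptides, uptake carriers with broad substrates, Oatp33Ea and Oatp58Dc were higher. Oatp33Ea measured 4.41, 4.85 and 4.74 in methylphenidate-fed males and 3.78, 4.15 and 3.97 in sucrose-fed males, 1.62-fold higher (limma adjusted p = 0.0018). Oatp58Dc, expressed in Malpighian tubules, was 1.41-fold higher (limma adjusted p = 0.0022), without overlap between the groups. Of 28 genes of the Malpighian tubule, mostly subunits of the proton pump, Oatp58Dc and the pump subunit gene Vha100-5 were the 2 called, and the list's median was 0.01. Vha100-5 had 3.66, 3.64 and 3.6 with methylphenidate against 2.95, 3.17 and 3.07 with sucrose (1.49-fold, limma adjusted p = 0.00022). With the GAPDH covariate Vha100-5 kept its call, while Oatp33Ea and Oatp58Dc lost theirs. Of 13 genes on the list of organic ion carriers and urate enzymes 2 were higher (15.4%) and none lower. These 2 were mal and ry, which are not carriers and are described below with the molybdoenzymes. No carrier of this list was called, and 10 of the 13 genes had a negative change.

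Hydrolases and carbonyl-reducing enzymes rose as well. Of 12 esterase genes 5 were higher (41.7%) and none lower, 4 of them also with the GAPDH covariate. alpha-Est5 measured 3.62, 3.53 and 3.80 in methylphenidate-fed males and 2.85, 2.51 and 2.84 in sucrose-fed males, 1.89-fold higher (limma adjusted p = 4.7e-05). alpha-Est10 (1.86-fold), Est-Q (1.66-fold) and alpha-Est7 (1.41-fold) followed, and Jhedup, a relative of juvenile hormone esterase, was 1.46-fold higher. Jheh2, a juvenile hormone epoxide hydrolase, had 7.69, 8.5 and 8.36 with methylphenidate and 6.23, 6.21 and 6.28 with sucrose, 3.85-fold higher (log2 1.94 ± 0.15 SE, limma adjusted p = 1.7e-06). It was the only gene called among 17 of juvenile hormone and ecdysone metabolism and response, also with the GAPDH covariate.

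Of 17 carbonyl and alcohol dehydrogenases 8 were higher (47.1%) and none lower, with a median log2 change of 0.31. CG2065, a short-chain dehydrogenase, had the largest change outside the 4 families: 4.97, 6.76 and 7.04 in methylphenidate-fed males and 2.13, 2.47 and 1.76 in sucrose-fed males, 17.6-fold (log2 4.14 ± 0.39 SE, limma adjusted p = 1.6e-05). Replicate 1 of the methylphenidate-fed males was the lowest of its group by more than 1.5 log2 units and still above all controls. For Sodh1, a sorbitol dehydrogenase, replicate 1 was instead the highest treated array. It measured 9.17, 8.48 and 8.97 in methylphenidate-fed males against 7.72, 7.39 and 7.5 in sucrose-fed males (2.53-fold, limma adjusted p = 3.4e-05). Rdh1 (2.82-fold), the aldo-keto reductase CG12766 (2.52-fold) and CG3699 (1.81-fold) passed as well. Fdh, which oxidises the glutathione adduct of formaldehyde, the aldehyde dehydrogenase CG31075 and the carbonyl reductase sni were 1.25-fold to 1.43-fold higher. With the GAPDH covariate 4 of the 8 were called, and 5 when replicate 3 of the sucrose-fed males was left out.

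Enzymes that make glutathione and keep thiols reduced rose modestly. Of 20 genes on this list 8 were higher (40.0%) and none lower. Between the groups 14 had no overlap, against 25.5% of all genes, and these 14 include TrxT, dhd and Prx6c, with negative changes that were not called. Keap1, the sensor that restrains the stress-response factor cnc (the fly counterpart of Nrf2), measured 2.43, 3.58 and 3.13 in methylphenidate-fed males and 1.54, 1.56 and 1.93 in sucrose-fed males, 2.59-fold higher (log2 1.38 ± 0.21 SE, limma adjusted p = 0.0014). The smaller rise of cnc itself, 6.67, 6.75 and 6.70 with methylphenidate against 6.38, 6.46 and 6.46 with sucrose (1.21-fold, limma adjusted p = 0.031), held under 7 of 17 alternative settings. Gclc, the catalytic subunit of the first enzyme of glutathione synthesis, had 5.98, 6.23 and 6.21 with methylphenidate and 5.59, 5.76 and 5.77 with sucrose (1.35-fold, limma adjusted p = 0.015). Its partner Gclm moved 0.31 ± 0.10 (SE) on the log2 scale and was not called (limma adjusted p = 0.13).

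Gtpx, a thiol peroxidase, was 1.53-fold higher, the mitochondrial peroxiredoxin Prx3 1.42-fold, the thioredoxin reductase Trxr1 1.40-fold and catalase, Cat, 1.31-fold. MsrA, which repairs oxidised methionine, was 1.99-fold higher, with 4.60, 5.52 and 5.54 in methylphenidate-fed males and 4.23, 4.48 and 3.98 in sucrose-fed males. For 7 of these 8 genes replicate 1 was the lowest treated array. The superoxide dismutase Sod2 (log2 change 0.07 ± 0.08 SE) and the thioredoxin Trx2 (0.13 ± 0.07 SE) were not called. The count of 8 was 1 with the GAPDH covariate. It was 4 without replicate 2 and 5 without replicate 3 of the methylphenidate-fed males, and 5 without replicate 1 or replicate 3 of the sucrose-fed males.

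Of 7 measured genes of the pentose phosphate pathway and of NADP-dependent enzymes, listed as NADPH supply, 4 were higher (57.1%). Zw, Pgd, Tkt and Nnt, also named for this list, had no probe set for the gene alone and are not counted. Taldo, the transaldolase of the pentose phosphate pathway, measured 7.85, 7.41 and 7.71 in methylphenidate-fed males and 6.96, 6.97 and 6.98 in sucrose-fed males, 1.61-fold higher (log2 0.68 ± 0.09 SE, limma adjusted p = 0.0005). Rpi (1.31-fold) and Pgls (1.29-fold) of the same pathway and the NADP-dependent isocitrate dehydrogenase Idh (1.25-fold) were higher by less. The malic enzymes Men (log2 change -0.12 ± 0.08 SE) and Men-b (0.16 ± 0.12 SE) were not called. The count was 1 with the GAPDH covariate and 2 without replicate 1 or replicate 3 of either group.

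Enzymes of the methionine cycle and of the route from homocysteine to cysteine rose together. Of 15 genes 7 were higher (46.7%) and none lower. Gnmt, which uses S-adenosylmethionine to methylate glycine, had 7.94, 8.31 and 8.35 in methylphenidate-fed males against 6.11, 6.30 and 6.78 in sucrose-fed males, 3.49-fold higher (log2 1.8 ± 0.16 SE, limma adjusted p = 7.8e-06). The groups were separated by more than 1 log2 unit. Sam-S, which makes S-adenosylmethionine, was 1.47-fold higher, and Ahcy, which cleaves S-adenosylhomocysteine, 1.61-fold. Sardh, which demethylates the sarcosine that Gnmt produces, measured 1.83, 1.49 and 1.91 with methylphenidate and 0.63, 0.50 and 0.96 with sucrose (2.07-fold, limma adjusted p = 0.0015).

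Cth, the last enzyme of the route to cysteine, had 4.54, 4.84 and 4.79 in methylphenidate-fed males and 3.61, 3.78 and 3.57 in sucrose-fed males (2.10-fold, log2 1.07 ± 0.09 SE, limma adjusted p = 7.1e-06). Cbs, the enzyme before it, was 1.54-fold higher, and CG5493, a cysteine dioxygenase that opens the way to taurine, 1.44-fold. The methyltransferase Bhmt, the polyamine enzymes SamDC and Odc1 and the Ahcy relative AhcyL1 had log2 changes between -0.05 and 0.01 and were not called. Gnmt, Cth and Ahcy passed with the GAPDH covariate, which left 3 of the 7.

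Folate-dependent and purine-making enzymes were higher, most of all in replicate 1 of the methylphenidate-fed males. Of 10 folate and glycine genes 4 were higher (40.0%), among them Alas, which uses glycine and is described with heme synthesis, where it is counted again. Of the 4, pug was called with the GAPDH covariate. pug, the trifunctional enzyme that interconverts folates, measured 6.91, 6.33 and 6.76 with methylphenidate and 5.63, 5.57 and 5.69 with sucrose (2.05-fold, limma adjusted p = 0.00013). Shmt, which takes a carbon unit from serine, had 7.27, 6.39 and 6.68 with methylphenidate against 5.98, 6.0 and 5.97 with sucrose (1.73-fold, limma adjusted p = 0.012). CG6415, the aminomethyltransferase of glycine cleavage, was 1.60-fold higher.

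The list of purine synthesis enzymes was drawn up after values were seen, so its count is a description only. Gart, a trifunctional purine enzyme, measured 5.65, 4.40 and 4.55 in methylphenidate-fed males and 3.09, 3.42 and 3.43 in sucrose-fed males, 2.93-fold higher (log2 1.55 ± 0.24 SE, limma adjusted p = 0.0016). Pfas was 2.03-fold, Adsl 1.96-fold and Paics 1.37-fold higher, so that 4 of 9 members passed; Pfas and Adsl passed with the GAPDH covariate, and Gart and Paics did not. The first enzyme of the pathway did not follow: Prat had a log2 change of 0.18 ± 0.11 and Prat2 of -0.28 ± 0.13 (SE). In the F1 males, Gart stood at 4.99 with a methylphenidate-exposed mother and 5.08 with sucrose-exposed parents, close to the 4.87 of methylphenidate-fed males and above the 3.31 of sucrose-fed males.

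Heme and molybdenum enzymes, lists also chosen after values were seen, were higher in several members. Alas, the first enzyme of heme synthesis, had 7.22, 7.47 and 7.41 in methylphenidate-fed males against 6.72, 6.81 and 6.85 in sucrose-fed males (1.49-fold, limma adjusted p = 0.00069). Pbgs (1.55-fold) and Urod (1.32-fold), later steps, passed, while the last 2 steps, Ppox and FeCH, did not (log2 changes 0.10 ± 0.09 and 0.26 ± 0.07 SE). Of 7 molybdoenzyme genes 5 were higher. mal, which loads sulfur onto the molybdenum cofactor, measured 2.99, 3.22 and 3.17 with methylphenidate and 2.13, 2.22 and 2.03 with sucrose, 2.0-fold higher (limma adjusted p = 4.4e-05). Mocs1, which starts cofactor synthesis, was 1.72-fold, the aldehyde oxidases AOX3 and AOX1 1.71-fold and 1.51-fold, and ry, the xanthine dehydrogenase that makes urate, 1.42-fold higher. None of the 3 heme genes was called with the GAPDH covariate, against 3 of the 5 molybdoenzyme genes.

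Genes of the first steps of tyrosine breakdown were higher. Tat, the first, was 1.45-fold higher. Hpd, the second, measured 7.23, 7.15 and 7.18 in methylphenidate-fed males and 6.28, 6.42 and 6.25 in sucrose-fed males (1.83-fold, limma adjusted p = 8.0e-05). hgo, the third, measured 4.62, 4.15 and 4.51 with methylphenidate and 3.38, 3.76 and 3.53 with sucrose (1.82-fold, limma adjusted p = 0.0014). Faa, the last step, was not called (log2 change 0.16 ± 0.09 SE). With the aspartate aminotransferases Got2 (1.45-fold) and Got1 (1.28-fold), 5 of 17 amino acid catabolism genes were higher (29.4%) and none lower, 1 of them with the GAPDH covariate.

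**Figure D2:**
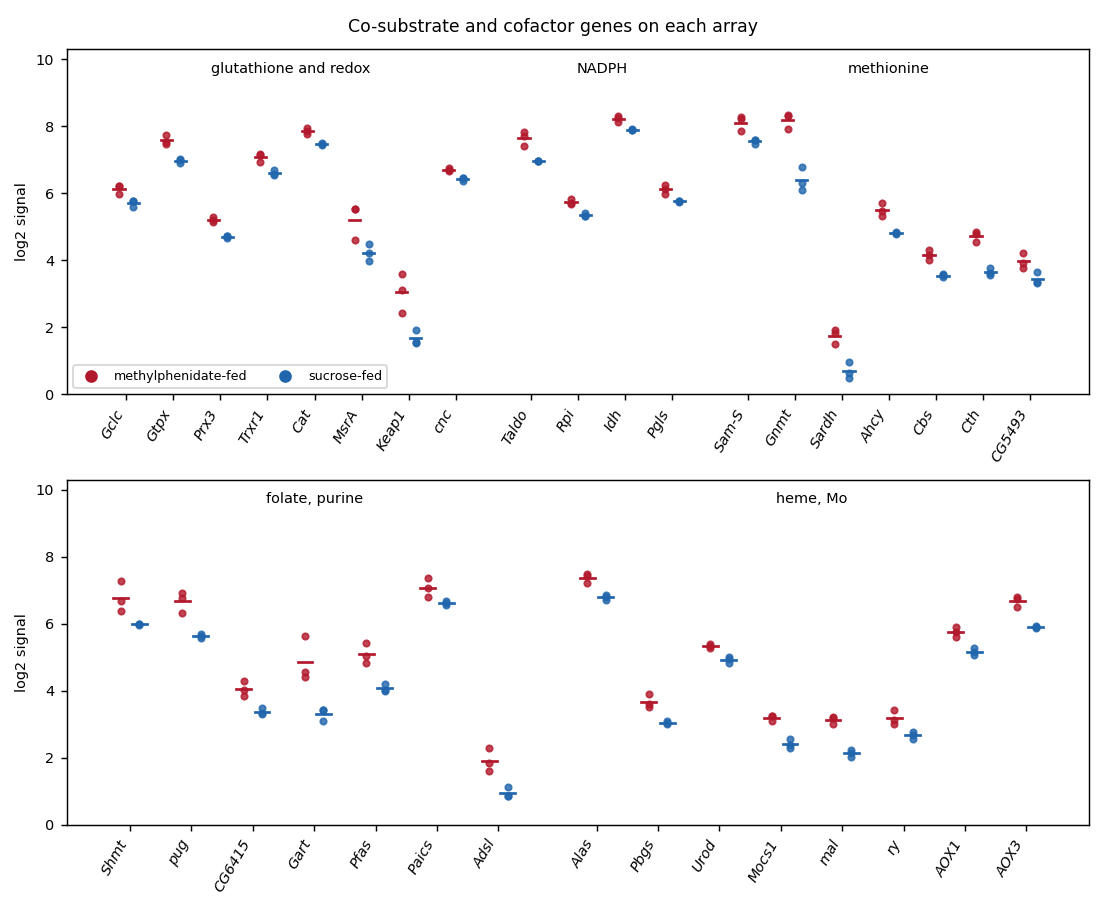
Log2 signal of genes of glutathione and redox, NADPH, methionine, folate and purine, and heme and molybdenum (Mo) metabolism on each of 6 arrays, methylphenidate-fed in red on the left of each gene and sucrose-fed in blue on the right, with bars at the group means. Every gene shown is a called one, chosen for that reason; the treated points of Gart (4.40 to 5.65) and Keap1 (2.43 to 3.58) are spread most widely.

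Among digestive genes maltases were mostly higher, gut peptidases were more often lower, and lipases went both ways. Carbohydrate-digesting enzymes rose: 8 of 12 maltase genes were higher (66.7%), none lower, with a median log2 change of 0.79. Mal-B1 had 4.15, 3.25 and 3.75 in methylphenidate-fed males against 1.19, 1.05 and 1.24 in sucrose-fed males, 5.88-fold (log2 2.56 ± 0.30 SE, limma adjusted p = 0.00011). Mal-A4 (2.39-fold), Mal-A3 (1.92-fold), Mal-A2 (1.84-fold), tobi (1.82-fold), Mal-A7 (1.64-fold), Mal-A6 (1.46-fold) and Mal-A1 (1.41-fold) followed. Related copies of a cluster can share probes, so the Mal-A values may not be independent. Replicate 1 was the highest treated array for 7 of the 8. The count was 4 without replicate 1 of either group, 5 when replicate 3 of the sucrose-fed males was dropped, and 3 with the GAPDH covariate.

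Lysosomal alpha-mannosidases, which trim mannose from glycoproteins, rose in the same arrays. LManIII measured 4.41, 3.29 and 3.06 in methylphenidate-fed males and 1.14, 2.22 and 1.66 in sucrose-fed males (3.77-fold, log2 1.91 ± 0.34 SE, limma adjusted p = 0.0045). LManV measured 6.31, 5.82 and 5.72 with methylphenidate and 4.04, 5.25 and 4.32 with sucrose (2.66-fold, limma adjusted p = 0.0042). LManVI (2.77-fold), LManI (1.99-fold) and LManII (1.52-fold) made 5 of 9 glycosidase genes higher (55.6%), while LManIV was not called (log2 change -0.02 ± 0.14 SE). Within the sucrose-fed group replicate 2 was the highest for all 5, and none of the 5 was called with the GAPDH covariate. Copies of this family may share probes as well.

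Peptidases of the gut fell. Of 38 genes 14 were lower (36.8%) and 1 higher, with a median log2 change of -0.51. Jon99Fi, a serine peptidase, had 2.0, 1.76 and 2.92 in methylphenidate-fed males and 5.13, 5.77 and 5.57 in sucrose-fed males, a fall by 3.26 on the log2 scale (SE 0.24, limma adjusted p = 1.3e-06). The carboxypeptidase CG12374 had 5.60, 6.02 and 5.83 with methylphenidate against 7.79, 8.52 and 8.45 with sucrose (log2 change -2.44 ± 0.19 SE, limma adjusted p = 2.5e-06). epsilonTry, a trypsin, had 5.50, 5.63 and 4.93 with methylphenidate and 6.53, 7.23 and 6.89 with sucrose (log2 change -1.53 ± 0.19 SE, limma adjusted p = 0.00019).

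Other falls were smaller: Jon65Aiv averaged 8.5 with methylphenidate and 9.37 with sucrose, and yip7 8.30 and 8.88 (log2 changes -0.87 ± 0.13 and -0.58 ± 0.11 SE). The exception was the trypsin etaTry, at 2.38, 2.61 and 2.24 with methylphenidate and 1.64, 1.91 and 1.8 with sucrose, 1.55-fold higher (limma adjusted p = 0.005). The trypsins alphaTry (log2 change -0.26 ± 0.08 SE), zetaTry (-0.02 ± 0.08 SE) and lambdaTry (0.55 ± 0.23 SE) were not called. Maltases, also made in the midgut, were higher in the same males. With the GAPDH covariate 11 of the 14 falls were called and the rise of etaTry was not; dropping replicate 2 or replicate 3 of the sucrose-fed males left 8.

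Lipases of the gut showed large falls in few genes. CG17192 measured 1.69, 1.27 and 1.39 in methylphenidate-fed males and 4.39, 4.11 and 4.58 in sucrose-fed males, a fall by 2.91 on the log2 scale (SE 0.29, limma adjusted p = 2.4e-05). mag, the lipase magro, which digests dietary fat and acts on sterols, had 4.54, 4.13 and 3.69 with methylphenidate against 5.11, 5.94 and 5.53 with sucrose (log2 change -1.40 ± 0.21 SE, limma adjusted p = 0.0011). CG6295 fell by 1.56 ± 0.18 (SE). Of 32 lipase genes these 3 were lower, while CG31089 (1.82-fold) and CG10116 (1.29-fold) were higher. The 3 falls held with the GAPDH covariate and the 2 rises did not.

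Alkaline phosphatases, a list chosen after values were seen, fell in 5 of 13 genes. phu, also named Alp3, dropped to the floor of the array, with -0.21, 0.39 and 0.24 in methylphenidate-fed males against 3.81, 2.94 and 2.88 in sucrose-fed males (log2 change -3.07 ± 0.21 SE, limma adjusted p = 6.8e-07). Because the treated values lie at the floor, the fall may be understated. Alp4 (log2 change -0.56), Alp2 (-0.77), Alp9 (-1.01) and Alp10 (-1.04) also fell, and Alp6 was 1.73-fold higher. Of the 5 falls, those of phu and Alp4 were called with the GAPDH covariate. Leaving out replicate 2 or replicate 3 of either group gave 3 falls. In F1 males phu stood at 0.74 with a methylphenidate-exposed mother and at 0.36 with sucrose-exposed parents, near the floor in both groups.

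The list of mucins, peritrophins and obst genes held few calls, and the median was -0.01. Of its 30 genes Muc68E and Muc68D were higher (6.67%, against 3.24% of all genes). The chitin-binding obst-A was lower (3.33%, against 1.34% of all genes). In sucrose-fed males 15 of the 30 had a mean signal under 0.5, where little can be seen. Muc68E measured 4.12, 3.79 and 3.89 in methylphenidate-fed males and 2.88, 2.82 and 2.88 in sucrose-fed males (2.11-fold, limma adjusted p = 0.00017). obst-A measured 2.33, 1.93 and 2.19 with methylphenidate and 2.84, 3.10 and 2.85 with sucrose, a fall by 0.78 on the log2 scale (limma adjusted p = 0.0015). Of 29 sugar and amino acid transporters acs was higher (2.31-fold) and the trehalose transporter Tret1-1 lower, by 0.33 on the log2 scale (3.45% each). Calls for Muc68D, acs and Tret1-1 held under 9, 11 and 8 of 17 alternative settings, and none of these 3 with the GAPDH covariate; Muc68E and obst-A held with it.

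**Figure D3:**
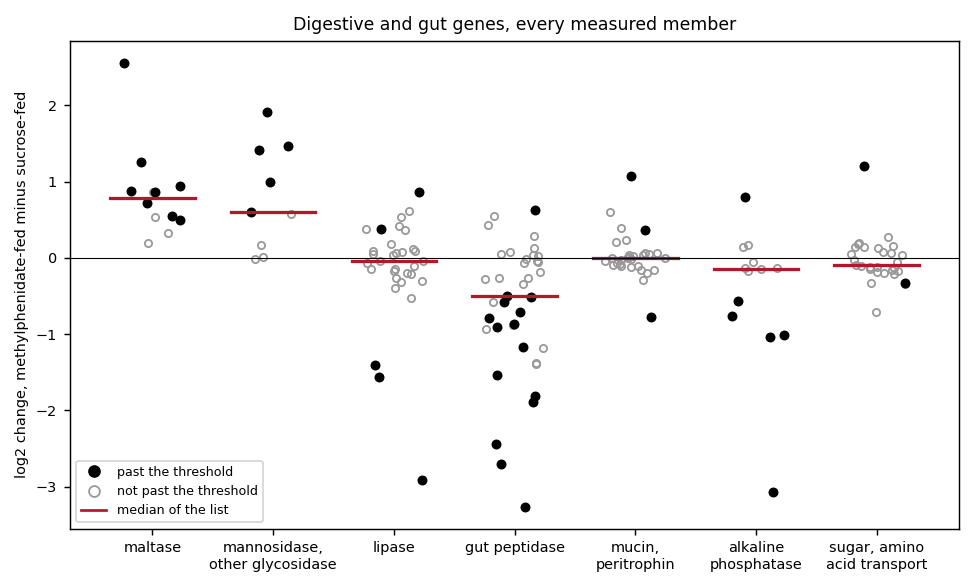
Log2 change, methylphenidate-fed minus sucrose-fed, of every measured member of 7 lists of digestive and gut genes; filled points are past the threshold, open points are not, and red lines mark each list's median. The maltase points all lie above 0 (median 0.79), the gut peptidases reach from -3.26 to 0.63 (median -0.51), and mucins and transporters gather around 0.

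Among fat genes, AkhR and the droplet protein genes Jabba and Lsd-1 fell, while the acyltransferase genes Dgat2, mdy and mino rose. AkhR, the receptor of the adipokinetic hormone that mobilises stored fat, measured 4.02, 3.69 and 3.86 in methylphenidate-fed males and 5.0, 4.87 and 4.85 in sucrose-fed males (log2 change -1.05 ± 0.11 SE, limma adjusted p = 5.4e-05). Jabba, a protein of lipid droplets, measured 3.24, 3.44 and 3.37 with methylphenidate and 4.82, 4.55 and 4.63 with sucrose, a fall by 1.32 on the log2 scale (SE 0.09, limma adjusted p = 6.8e-07). Lsd-1, the perilipin through which the hormone acts at the droplet, fell by 0.81 on the log2 scale. In the same list of 25 genes the fat lipase bmm (1.38-fold), the lipophorin receptor LpR2 (1.40-fold) and the lipocalin NLaz (1.45-fold) were higher. The 3 falls held under every one of the 17 alternatives, and none of the 3 rises held with the GAPDH covariate. The rise of bmm was also lost without replicate 1 or 3 of the methylphenidate-fed males and without replicate 1 or 2 of the sucrose-fed males.

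Dgat2, a diacylglycerol acyltransferase that closes triglyceride synthesis, had 2.18, 3.28 and 2.69 in methylphenidate-fed males and 0.88, 0.63 and 0.83 in sucrose-fed males, 3.82-fold higher (log2 1.94 ± 0.19 SE, limma adjusted p = 2.0e-05). mdy, the other acyltransferase of this step, measured 5.08, 4.83 and 5.07 with methylphenidate and 4.52, 4.66 and 4.32 with sucrose (1.41-fold, limma adjusted p = 0.0094). The acetyl-CoA carboxylase ACC (1.28-fold) and the glycerol-3-phosphate acyltransferase mino (1.25-fold) were the remaining calls among 21 lipogenesis genes, and the fatty acid synthase FASN1 (log2 change -0.12 ± 0.07 SE) and the acyltransferases Gpat4 (0.11) and Agpat3 (0.08) were not called. Of these 4 rises 2 held with the GAPDH covariate, and 2 without replicate 1 or replicate 3 of either group. Acox57D-p, a peroxisomal acyl-CoA oxidase, had 4.43, 5.18 and 4.97 with methylphenidate and 3.09, 3.34 and 3.24 with sucrose (3.12-fold, limma adjusted p = 8.4e-06), and with Had1 (1.54-fold) and wal (1.26-fold) it made 3 of 12 beta-oxidation genes higher; Acox57D-p alone kept the call with the GAPDH covariate.

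Signals that report the nutrient state fell in 4 of 21 genes and rose in 2. sug, a zinc-finger factor that responds to sugar, measured 3.19, 3.81 and 3.91 in methylphenidate-fed males and 4.60, 4.61 and 4.67 in sucrose-fed males (log2 change -0.99 ± 0.14 SE, limma adjusted p = 0.00093). cbt, another sugar-responsive factor, measured 6.03, 6.24 and 6.12 with methylphenidate and 6.45, 6.61 and 6.66 with sucrose (log2 change -0.45 ± 0.08 SE, limma adjusted p = 0.0043). CCHa2, a peptide of the fat body and gut that reports feeding, had 4.02, 3.81 and 3.95 with methylphenidate against 4.93, 4.79 and 4.86 with sucrose (log2 change -0.93 ± 0.09 SE, limma adjusted p = 2.4e-05). fit, a satiety peptide, had 3.65, 2.29 and 3.01 with methylphenidate against 4.95, 4.38 and 4.90 with sucrose (log2 change -1.76 ± 0.27 SE, limma adjusted p = 0.0013).

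The 2 rises were in tobi, an alpha-glucosidase under insulin and adipokinetic control, at 7.90, 7.83 and 8.06 with methylphenidate and 7.36, 6.76 and 7.07 with sucrose (1.82-fold, limma adjusted p = 0.00073), and in Lst. Lst, the hormone limostatin, which restrains insulin release, was 1.5-fold higher and held under 10 of 17 alternatives; it lost the call with the GAPDH covariate, without replicate 1 or 3 of the methylphenidate-fed and without replicate 1 or 2 of the sucrose-fed males. The 4 falls held under all 17. In F1 males sug stood at 3.13 with a methylphenidate-exposed mother and 2.62 with sucrose-exposed parents, while fit stood at 6.74 with a methylphenidate-exposed mother and 5.70 with sucrose-exposed parents. Both pairs of F1 means lay outside the range of methylphenidate-fed and sucrose-fed arrays, below it for sug and above it for fit.

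**Figure D4:**
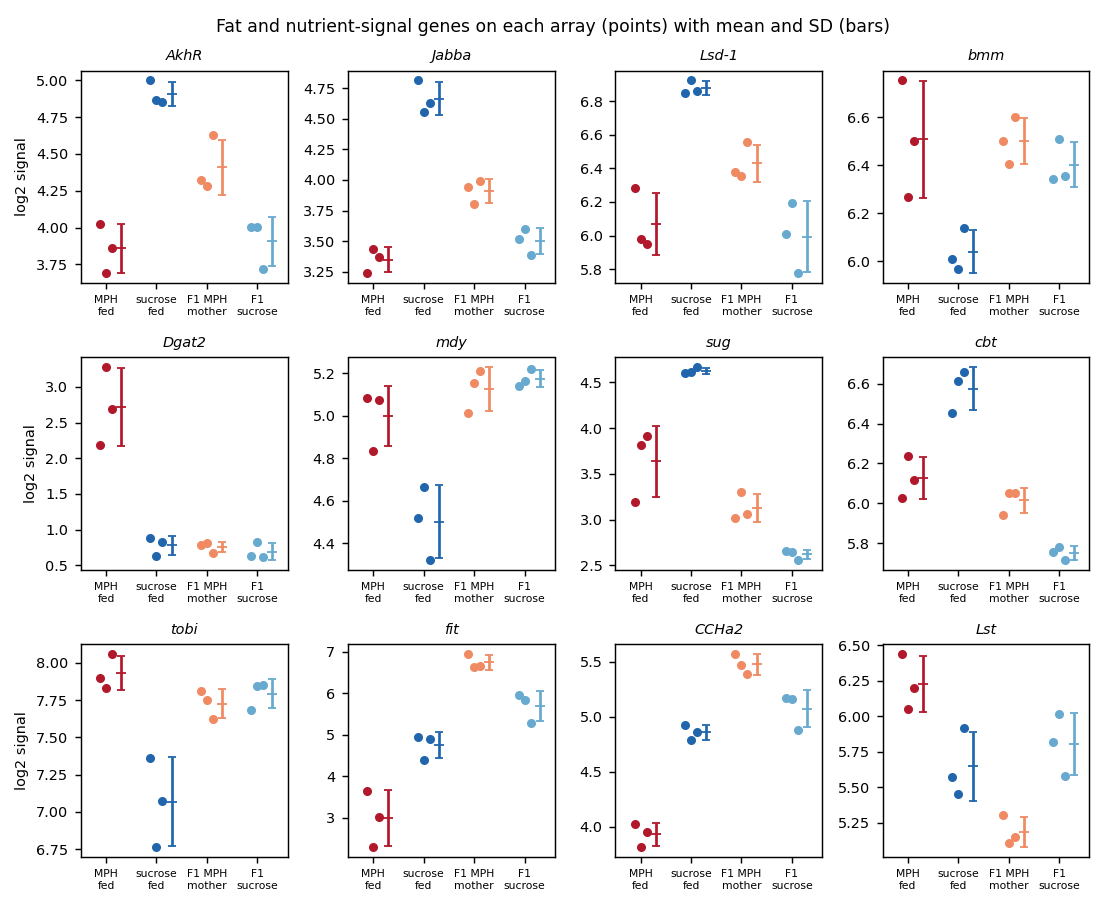
Log2 signal of 12 fat and nutrient-signal genes on each array, with group means and SD as bars (n = 3), in methylphenidate-fed and sucrose-fed males and in F1 males of a methylphenidate-exposed (MPH) mother or of sucrose-exposed parents; each panel has its own axis. AkhR, Jabba, Lsd-1, sug, cbt, fit and CCHa2 are lower, and bmm, Dgat2, mdy, tobi and Lst higher, in methylphenidate-fed than in sucrose-fed males.

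Central carbon metabolism held few calls. Of 25 glycolysis and gluconeogenesis genes 4 were higher (16.0%): Pgm1 (1.53-fold), which links glycogen to glucose-6-phosphate, fbp (1.5-fold), the hexokinase Hex-C (1.35-fold) and Pgi (1.22-fold). Pgm1 measured 7.88, 7.62 and 7.73 in methylphenidate-fed males and 7.16, 7.16 and 7.07 in sucrose-fed males (limma adjusted p = 0.00038), and kept the call with the GAPDH covariate. The other 3 lost it. For all 4, replicate 1 was the highest treated array. Pepck1, the entry to gluconeogenesis, had 8.58, 7.92 and 7.79 with methylphenidate and 7.79, 7.95 and 7.88 with sucrose, overlapping groups that did not pass. The citric acid cycle had 1 call of 16, the cytosolic malate dehydrogenase Mdh1 (1.37-fold, limma adjusted p = 0.0013), also called with the GAPDH covariate, and oxidative phosphorylation none of 72, with a range of changes from -0.29 to 0.17.

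In the translation machinery most changes were positive and small. Of 41 cytoplasmic ribosomal protein genes none was called, though 35 had a positive change, against 44.4% of all genes, and the median was 0.16. Their mean per array was 7.87 to 7.91 with methylphenidate and 7.75 to 7.78 with sucrose, with no overlap. Between 0 and 14 of them were called over the alternatives. Mitochondrial ribosomal genes were positive in 54 of 69 cases with a median of 0.09, and none was called.

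Among 32 aminoacyl-tRNA synthetases, which charge tRNAs with amino acids, 7 were higher (21.9%) and 1 lower. AsnRS measured 4.31, 4.30 and 4.43 in methylphenidate-fed males and 3.73, 3.71 and 3.57 in sucrose-fed males (1.60-fold, log2 0.68 ± 0.08 SE, limma adjusted p = 0.00012). ValRS (1.54-fold), LysRS (1.39-fold), SerRS (1.37-fold), IleRS (1.35-fold), GlyRS (1.30-fold) and AlaRS (1.28-fold) passed too. TrpRS-m, a mitochondrial enzyme, fell by 0.30 on the log2 scale. Of these 8, AsnRS and ValRS were called with the GAPDH covariate. Leaving out any of the 6 exposed-male arrays other than replicate 1 of the methylphenidate-fed males gave 4 rises. In ribosome biogenesis Non1 and Nop17l were higher (1.29-fold and 1.36-fold) out of 26 genes; neither was called with the GAPDH covariate, nor without replicate 1 or 3 of the methylphenidate-fed or replicate 2 of the sucrose-fed males.

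Protein folding and turnover showed rises below 1.3-fold. Of 26 chaperones CCT6, CCT7, Hsp60A and Hsc70-4 were higher, by 1.21-fold to 1.29-fold, and of 41 proteasome subunits Prosbeta4, Prosalpha4 and Rpt3, by 1.22-fold to 1.24-fold. Atg2 (1.28-fold) and ref(2)P, the autophagy receptor (1.29-fold), were higher among 21 autophagy genes. None of these 9 was called with the GAPDH covariate, and leaving out replicate 3 of the methylphenidate-fed males removed them all from the chaperone, proteasome and autophagy counts. The 16 genes of endoplasmic reticulum stress had no call and changes from -0.09 to 0.14. The 17 genes of DNA repair and cell stress had no call either.

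Nuclear receptors known to regulate metabolism and detoxification were not called. Hr96, the nuclear receptor that senses foreign compounds, measured 2.93, 3.12 and 3.05 in methylphenidate-fed males and 2.85, 3.23 and 3.09 in sucrose-fed males (log2 change -0.03 ± 0.12 SE). None of 24 nuclear receptors was called, and the most positive, Hnf4, a regulator of fat and sugar metabolism, changed by 0.37 ± 0.11 (SE; limma adjusted p = 0.086). Of 35 immune genes 1 was higher and 1 lower (2.86% each), and of 30 metal genes the same (3.33% each). Over all genes 3.24% were higher and 1.34% lower. A further 12 immune names, among them AttA, CecA1, DptA and Dro, had no probe set for the gene alone. PGRP-LB, an amidase that degrades peptidoglycan, had 3.08, 3.46 and 3.17 with methylphenidate against 2.29, 2.29 and 2.62 with sucrose (1.79-fold, limma adjusted p = 0.005). PGRP-SC2, another amidase, fell by 0.96 on the log2 scale, a call that held under 9 of 17 alternatives. Mco1, a multicopper oxidase, was 1.60-fold higher, and the metallothionein MtnC fell by 0.95 on the log2 scale, a call that held under 10 alternatives. The clock gene tim was 1.24-fold higher (9 alternatives), while per and Clk were not called (log2 changes -0.10 ± 0.12 and -0.17 ± 0.09 SE). The immune, metal and clock lists had no call with the GAPDH covariate.

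Genes of amine synthesis and transport, the direct field of the drug's action, had no call among 25, with changes from -0.22 to 0.23. DAT, the dopamine transporter, measured 0.88, 1.09 and 1.0 in methylphenidate-fed males and 0.77, 0.98 and 0.92 in sucrose-fed males (log2 change 0.10 ± 0.11 SE). The groups overlapped, and the signal was close to the floor, where changes are compressed. Ddc (-0.07 ± 0.10 SE), which makes dopamine, and the vesicular transporter Vmat (-0.14 ± 0.09 SE) were not called, and ple, tyrosine hydroxylase, lay at the floor on all 6 arrays. Changes limited to the brain may not be detectable in RNA of whole flies.

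Of 36 synapse genes the scaffold gene Rim was lower, 3.39, 3.55 and 3.28 with methylphenidate and 3.70, 3.90 and 3.76 with sucrose (log2 change -0.38 ± 0.08 SE, limma adjusted p = 0.019). The list's median was -0.14 with 9 positive changes, against 44.4% of all genes. Rim lost the call without replicate 1 or 3 of the methylphenidate-fed and without replicate 2 or 3 of the sucrose-fed males. Of 30 neuropeptides CCHa2 and ETH, the ecdysis-triggering hormone, were lower, ETH by 0.52 on the log2 scale and under 9 of 16 alternatives. Single genes were lower among 47 odorant-binding proteins (Obp99b, by 0.93, 2.13%) and 166 chemoreceptors (Ir100a, by 0.28, 0.602%), against 1.34% of all genes. Single genes were higher among 17 phototransduction genes (ninaB, 1.52-fold, 5.88%) and 105 cuticle genes (Cpr67Fb, 3.25-fold, 0.952%), against 3.24% of all genes. Of the calls in these last 6 lists, those of CCHa2 and Cpr67Fb held with the GAPDH covariate. Of the chemoreceptors, 161 had a mean signal under 0.5, where little can be seen.

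Among male reproductive and muscle genes only spermatid genes held calls, and the list medians were negative. Of 40 spermatid genes 38 had a negative change, against 55.6% of all genes, with a median of -0.21. Their mean per array was 6.59 to 6.73 with methylphenidate against 6.80 to 6.95 with sucrose, without overlap. Mst84B, t-cup and w-cup were called (7.5%, against 1.34% of all genes), lower by 0.37, 0.34 and 0.27 on the log2 scale. The count of 3 ranged from 0 to 14 over the alternatives. It was 0 with the GAPDH covariate, without replicate 1 or 2 of the methylphenidate-fed males and without replicate 1 or 3 of the sucrose-fed males. None of 14 meiotic arrest genes, 26 seminal fluid genes and 19 muscle genes was called, with medians of -0.08, -0.09 and -0.19. The storage protein genes Fbp1 (2.10, 0.46 and 0.57 with methylphenidate, 0.40, 0.47 and 0.32 with sucrose) and Lsp2 varied between replicates and were not called.

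The replicates of methylphenidate-fed males differed by function. For the 77 higher genes of the 4 detoxification families, replicate 1 was the lowest treated array in 55, with a mean of 5.43 over these genes against 5.83 and 5.77 in replicates 2 and 3, while sucrose-fed arrays averaged 3.89 to 4.03. For the 13 higher maltase and mannosidase genes replicate 1 was the highest in 12, with a mean of 6.13 against 5.55 and 5.60, and sucrose-fed arrays averaged 4.45 to 4.88. The 8 higher folate and purine genes had the same order, with replicate 1 highest in 7. Over all 388 higher genes replicate 1 was the highest in 193 and the lowest in 142. In F1 males of a methylphenidate-exposed mother and of sucrose-exposed parents, the 13 carbohydrase genes averaged 5.73 to 6.03 and 5.78 to 6.13. The 77 detoxification genes averaged 4.25 to 4.35 and 4.29 to 4.36 there. All these genes were picked for being higher in methylphenidate-fed than in sucrose-fed males, so where the F1 means lie relative to those groups is a description only. What sets the replicates apart was not tested.

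Beyond the genes above, the 12 largest increases and 12 largest decreases outside the 4 families included genes with no list. CG9360 measured 8.17, 8.19 and 8.0 in methylphenidate-fed males and 4.76, 5.54 and 4.90 in sucrose-fed males, 8.30-fold higher (log2 3.05 ± 0.16 SE, limma adjusted p = 4.9e-08). CG34040 was 3.35-fold higher, and its second probe set changed alike (log2 1.71). The long noncoding RNA lncRNA:CR32027 (3.44-fold) and CG31809 (3.12-fold) were dim in controls, at 0.32 to 0.63 and 0.73 to 1.66. CG13912 had 1.78, 1.62 and 1.95 with methylphenidate and 3.36, 3.40 and 3.46 with sucrose, a fall by 1.62 on the log2 scale (SE 0.11, limma adjusted p = 3.5e-07). CG3348 and CG15155 fell by 1.77 and 1.66 on the log2 scale.

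Part of the called genes lay next to a gene called in the same direction. Of 384 higher genes with a place in the RefSeq order, 94 (24.5%) had a directly adjacent measured gene that was also higher. Of 160 lower genes 17 (10.6%) had an adjacent lower gene. Counted per neighbour, 15.1% of the 768 neighbours of higher genes were higher, against 3.24% of all genes. For lower genes 5.62% of 320 neighbours were lower, against 1.34% of all genes. These shares were not tested, and the 24.5% and 10.6% start from unequal shares over all genes. There were 12 runs of at least 3, mostly of gene families: GstD10, GstD9, GstD1, GstD2, GstD3, GstD4 and GstD5 on 3R, 5 kinase-like genes from CG31300 to CG31098 and 5 from CG31087 to CG10562 on 3R, Mal-A1 to Mal-A4 on 2R, GstE5, GstE6, GstE7 and GstE9 on 2R, Ugt37C2, Ugt37E1 and Ugt37D1 on 2L, and Jon25Biii, Jon25Bii and Jon25Bi, all lower, on 2L. The other runs, all of higher genes, were CG12780, Cyp6a14 and Cyp6a13 on 2R, CG6830, CG6834 and CG6908 on 3R, CG7916, CG7953 and CG7968 on 2L, sphe, CG9673, CG4653 and CG9672 on X, and CG34040, CG4363 and CG4377 on 2R. CG4363, next to CG34040, had 8.41, 7.96 and 8.31 with methylphenidate and 7.34, 7.33 and 7.30 with sucrose (1.88-fold, limma adjusted p = 5.4e-05). Neighbouring copies of a family may share probes, so such runs are not independent genes.

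The changes of directly exposed males were set against those of F1 males of a methylphenidate-exposed mother relative to F1 males of sucrose-exposed parents. The difference of the effects was past the threshold for 315 of the 629 called probe sets, against 2.09% of all probe sets, and for 23 of the 24 largest genes. The probe sets were chosen on the exposed effect, which is part of this difference, so both counts are a description. None of these 24 was called in F1 males. Mdr50 stood at 3.21 in F1 males of a methylphenidate-exposed mother and 3.16 in F1 males of sucrose-exposed parents, against a rise of 2.36 in exposed males (difference of effects 2.32 ± 0.23 SE). For fit the effect ran the other way in F1 males, by 1.04 ± 0.27 (SE) on the log2 scale.

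**Figure D5:**
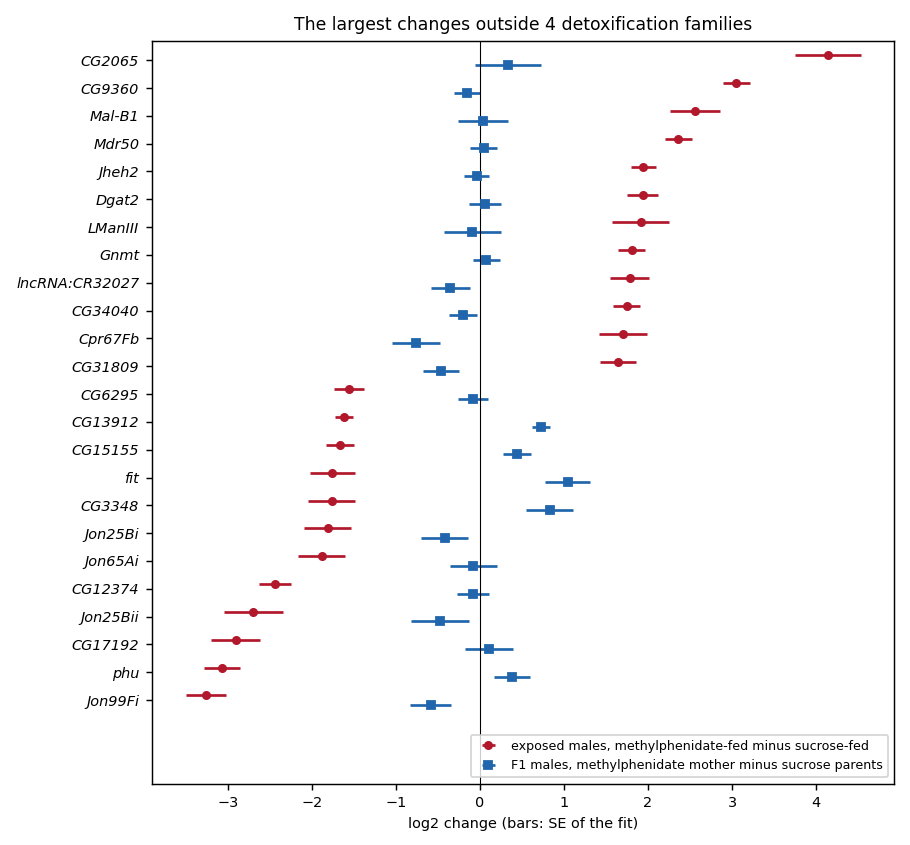
Log2 change of the 12 largest increases and 12 largest decreases outside the 4 detoxification families (rows), as red circles for methylphenidate-fed minus sucrose-fed males and blue squares for F1 males of a methylphenidate-exposed mother minus F1 males of sucrose-exposed parents; bars are SE of the fit. The F1 changes lie between -0.76 and 1.04, while the exposed changes run from -3.26 to 4.14.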

How the data were processed

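RNA of whole male flies, 8 per sample, was measured on 12 Affymetrix Drosophila Genome 2.0 arrays in 4 groups of 3, taken from the sample titles. The authors deposited 1 log2 signal per probe set and array. The submitters' processing notes name RMA, affy and limma; no version or setting is given in the sources used here. The log base, not stated, was checked on the hybridization controls: from BioB to Cre the deposited log2 signal rose by 6.21 (nominal log2 ratio 6.06). No further normalization was applied.

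From 18952 probe sets 183 controls were removed, leaving 18769 for testing, dim ones included. The array annotation gave 13647 probe sets 1 gene, 402 several and 4720 none here; for 13544 the symbol was brought up to date by gene identifier from RefSeq, which served for names and gene order only. Probe sets with several genes were not named. In lists a gene stands by its brightest probe set.

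limma 3.58.1 in R 4.3.3 fitted 4 group means to all 12 arrays (lmFit, contrasts.fit, eBayes), two-sided, adjusted by Benjamini-Hochberg over all probe sets, with a threshold of 0.05. Lists were counted, not tested. Array measures had exact permutation tests. In simulated data, with known changes in 200 of 18769 probe sets, the fit recovered 80.6% of log2 changes of 0.5 and 100% of 1 and of 2 for methylphenidate-fed minus sucrose-fed males, and 7.9% of its calls were false. The simulation was a single run with independent normal noise. It held neither the GAPDH difference nor the replicate shifts of the real arrays, so these rates may not hold for them. The number of arrays limits the precision.

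The comparison, the lists and the naming rule were chosen with earlier results of these data known, and 4 lists (purine synthesis, molybdoenzymes, heme, alkaline phosphatases) after values were seen. From each of the 55 other lists the text names up to 10 called members by smallest p, up to 3 where none was called, and set anchor genes; outside the 4 detoxification families it names the 12 largest increases and 12 largest decreases without overlap, and their called neighbours. Uncalled members named for contrast were chosen after their values were seen. Alternatives were a fit of the 6 exposed-male arrays, a block for the replicate number, quantile normalization, dropping the dimmest 30% or 50% of probe sets, median centring, trend and robust eBayes, array weights, 1 probe set per gene, the GAPDH covariate and leaving out each exposed-male array; leaving out replicate 3 of the F1 males of sucrose-exposed parents was added after seeing the data. Promoter motifs were not analysed here.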

Additional observations from a re-analysis of the deposited data

Results flagged for a closer look

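For 23 of the 24 largest changes outside the 4 detoxification families, the effect of feeding methylphenidate differed from the effect of having a methylphenidate-exposed mother (exposed effect minus F1 effect, log2, limma adjusted p under 0.05). Among the increases this difference was 3.80 for CG2065, 3.21 for CG9360, 2.52 for Mal-B1, 2.32 for Mdr50, 1.98 for Jheh2, 1.87 for Dgat2, 2.01 for LManIII and 1.73 for Gnmt. It was 2.13 for lncRNA:CR32027, 1.94 for CG34040, 2.46 for Cpr67Fb and 2.10 for CG31809. Among the decreases it was -2.68 for Jon99Fi, -3.45 for phu, -3.01 for CG17192, -2.23 for Jon25Bii, -2.36 for CG12374, -1.81 for Jon65Ai and -2.60 for CG3348. It was -2.80 for fit, -2.11 for CG15155, -2.34 for CG13912 and -1.48 for CG6295. The genes were picked for their change in exposed males, which is part of this difference, so the number past the threshold is a description. Jon25Bi did not pass (-1.39).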

How the results depend on the processing

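The 629 calls (447 higher, 182 lower, 71.1% higher) depended on the settings, but no call changed sign under any alternative. With the GAPDH covariate 203 probe sets were called (151 higher, 52 lower). The 6 exposed-male arrays alone gave 411, with 107 lower. Trend and robust eBayes gave 1009 (435 lower, 56.9% higher). Lower calls numbered 354 with array weights (60.9% of calls higher), 347 after quantile normalization (58.0% higher) and 373 without the dimmest 50% of probe sets (59.5% higher). The share higher was 63.3% after median centring, 67.4% with 1 probe set per gene and 66.8% of 665 calls (221 lower) without replicate 3 of the F1 males of sucrose-exposed parents, a setting added after seeing the data. Leaving out 1 exposed-male array at a time gave 398 to 530 calls, 306 to 416 higher and 79 to 114 lower, 74.9% to 80.2% of them higher. Among these fits the lowest counts, 398 calls and 79 lower calls, came when replicate 3 of the sucrose-fed males was left out.

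A block for the replicate number gave 426 calls (341 higher, 85 lower, 80% higher); the labels do not say that numbers pair samples, same-numbered samples did not deviate together (r = -0.174, -0.031 and 0.018), and not every sample correlated best with its own number.

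Of 272 genes covered by the naming rule 204 were called, 105 of them under every alternative that tested them and 136 under all but the GAPDH covariate, so calls near the threshold are less firm. Near the floor of the array, where 37.2% to 37.6% of probe sets of the exposed-male arrays lay under 0.5, changes are compressed. The cause of these differences was not tested.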
